A study of Mus musculus with 18 samples.

Results

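The lysosomal cathepsins, the subunits of the vacuolar proton pump (V-ATPase) and the lysosomal membrane glycoproteins Lamp1 and Lamp2 were followed in 3T3-L1 adipocytes, a clonal mouse preadipocyte line that turns into fat cells in culture. Members were chosen by the gene symbol of each array probe: Cts followed by a single letter, any symbol that starts with Atp6v0, Atp6v1 or Atp6ap, and Lamp1 and Lamp2. This gave 76 of the 45281 probes, for 42 of the 19057 genes with a symbol: 18 cathepsins, 8 subunits of the pump's membrane sector V0, 12 subunits of its cytosolic sector V1, 2 accessory proteins and the 2 LAMP proteins. No measured value was used to choose them.

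All cells had been differentiated for 7 days before a 24 hour exposure. The vehicle group received DMSO, and the others rosiglitazone at 100 nM, ibuprofen at 75 µM, diclofenac (as the sodium salt) at 25 µM, or indomethacin or GQ16 at 10 µM each. Rosiglitazone, of the thiazolidinedione class, is an agonist of PPARγ, a nuclear receptor required for fat cell differentiation. Diclofenac, indomethacin and ibuprofen are non-steroidal anti-inflammatory drugs. Each of the 6 groups had 3 samples, each on 1 Illumina mouse BeadChip array, spread over 3 slides of 6 arrays. All ibuprofen samples were on slide 2, where the only DMSO sample was replicate 3. GQ16 samples were on slides 2 and 3, and DMSO replicates 1 and 2 on slide 1. Slide 3 held no DMSO sample, but it held indomethacin replicates 1 and 2, rosiglitazone replicate 1 and diclofenac replicate 3. Slide and treatment are therefore partly mixed for every compound. Calls for genes other than the members are given without slide in the fit. Whether a group's 3 samples were grown as separate cultures is not stated in the labels, so the p-values reflect sample-to-sample spread that may be only technical. The concentrations differed between compounds, so a difference between 2 compounds is a difference at the concentrations used.

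Lysosomes break down proteins, lipids and glycans taken up from outside or delivered by autophagy. The V-ATPase makes them acid: its V1 sector splits ATP on the cytosolic side, and the energy turns a ring of V0 subunits that carries protons across the membrane. Cathepsins are proteases, most of them cysteine proteases and some aspartic or serine proteases, that are made as precursors and work at this low pH; Lamp1 and Lamp2 line the inner face of the membrane. In fat cells lysosomes also take part in the breakdown of lipid droplets. Many lysosomal genes share a promoter motif built on the E-box CACGTG, which the transcription factor TFEB and its relatives bind.

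That motif was looked up in the RefSeq promoter windows of build GRCm38.p6, which run from 250 bases before to 50 bases after an annotated transcription start. Of the 42 members 32 had a window. The letters CACGTG, which read the same on both strands, stood in the windows of 9 of these 32 genes and in 7.15% of all 32851 windows. The longer form TCACGTGA, which contains CACGTG, stood in 5 of the 32 (Atp6v0d1, Atp6v0e, Atp6v1a, Ctsa and Ctsd) and in 0.974% of all windows. A member was counted if any of its windows held the motif, while the percentages are of single windows, so they are not like for like. The motifs found are matches of letters, not measured binding. The next lines give, 5′ to 3′ on the gene's strand, the upstream part of 4 of these windows, with CACGTG in capitals. They are shown because Lamp1, Atp6v0d1 and Ctsf were lower, and Atp6v0b higher, with both rosiglitazone and indomethacin (values follow).
Lamp1, chr8:13158911-13159160, plus strand: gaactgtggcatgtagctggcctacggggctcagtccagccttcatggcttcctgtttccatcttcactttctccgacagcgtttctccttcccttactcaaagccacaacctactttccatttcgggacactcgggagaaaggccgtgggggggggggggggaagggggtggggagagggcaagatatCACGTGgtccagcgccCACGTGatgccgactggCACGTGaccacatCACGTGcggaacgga
Atp6v0d1, chr8:105566062-105566314, minus strand: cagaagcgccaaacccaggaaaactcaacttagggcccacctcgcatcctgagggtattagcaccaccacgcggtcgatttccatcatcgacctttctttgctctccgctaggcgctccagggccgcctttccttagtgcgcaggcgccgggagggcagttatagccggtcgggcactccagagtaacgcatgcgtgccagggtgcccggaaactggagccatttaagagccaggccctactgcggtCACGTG
Ctsf, chr19:4854915-4855164, plus strand: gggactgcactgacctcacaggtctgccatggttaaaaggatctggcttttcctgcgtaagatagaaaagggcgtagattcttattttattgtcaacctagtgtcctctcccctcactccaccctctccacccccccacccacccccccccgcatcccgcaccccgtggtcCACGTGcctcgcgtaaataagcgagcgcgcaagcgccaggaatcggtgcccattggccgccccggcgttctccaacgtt
Atp6v0b, chr4:117887330-117887579, minus strand: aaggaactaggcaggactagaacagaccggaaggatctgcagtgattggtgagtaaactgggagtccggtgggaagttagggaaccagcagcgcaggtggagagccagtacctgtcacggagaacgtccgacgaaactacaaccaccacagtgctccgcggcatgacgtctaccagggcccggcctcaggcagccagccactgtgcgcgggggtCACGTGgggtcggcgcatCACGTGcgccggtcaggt

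Lamp1 held the motif at 4 places, the first opening at position -61 from its start and the last ending at -10, and Atp6v0b at 2. In Atp6v0d1 the motif spanned the start itself, and in Ctsf it opened at -79. The window of Ctsl also held the motif, but its annotated start site lies 252 bases inside the gene, and it is therefore not printed. Members that passed no test held it too, namely Ctsd at 2 places, Atp6v1a and Atp6v0e, so the motif was found in members of either kind (6 of 9 that passed a test and had a window, 3 of 15 measured ones that did not).

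**Figure D1:**
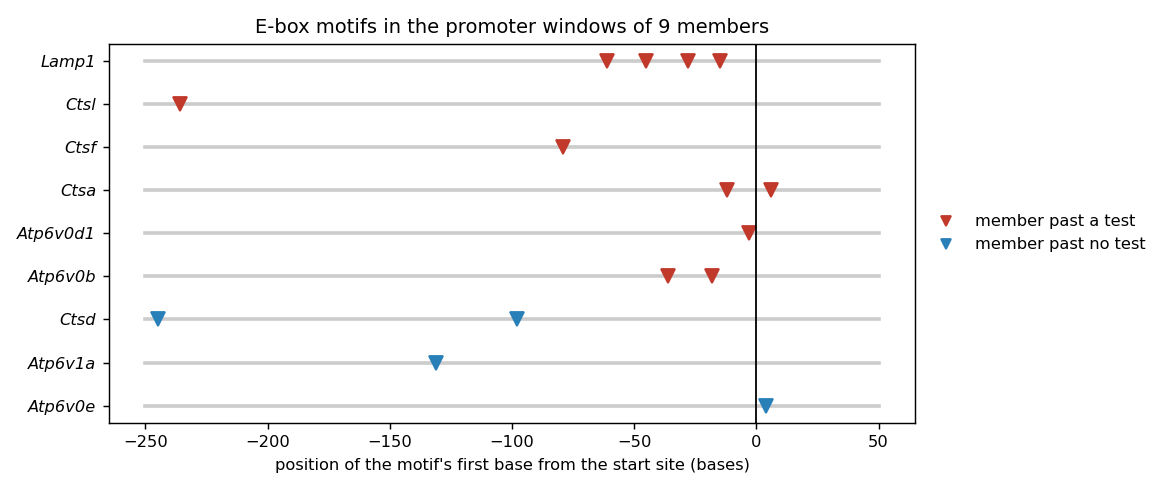
Position of each CACGTG motif in the promoter windows of the 9 members that hold it. The x axis is the distance of the motif's first base from the annotated start in bases, grey lines are the windows, red marks are members past a test and blue marks members past none. The 4 marks of Lamp1 sit close to its start, while that of Ctsl sits at -236.

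The values are the authors' normalized intensities on a log2 scale, on which 1 unit is a 2-fold difference, and all 18 arrays had been given the same distribution. A probe was counted as detected above background at values over 6.18, a level set as the 95th percentile of 1526 probes whose genes code for odorant, pheromone or trace amine receptors, taken as silent here. On every array 42.1% of probes were above it. All 9 adipocyte markers with a probe, Adipoq, Fabp4 and Plin1 among them, were above background on at least 3 of the 18 arrays. So were all 12 preadipocyte and fibroblast markers, though Pdgfrb was above it on only 6 arrays and Postn on 13. Of 11 macrophage markers 8 were not, including Adgre1 (F4/80), Ptprc (CD45), Itgam and Lyz2. Over the measured members rosiglitazone replicate 1 and DMSO replicate 3 lay farthest from their group means (root mean square deviation 0.291 and 0.263, against 0.0893 to 0.253 for the other 16 arrays), so results are also given without these 2 arrays where that matters. Over all genes the values were 0.286 and 0.207, and rosiglitazone replicate 2, at 0.229, lay between them.

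Of the 42 members 32 were measured, that is above background on at least 3 arrays, and 27 of them on all 18. Those not measured were the cathepsins Ctsg, Ctsj, Ctsm, Ctsq, Ctss and Ctsw, known from neutrophils, placenta, antigen presenting cells and cytotoxic lymphocytes, and the pump subunits Atp6v0a4, Atp6v0d2, Atp6v1e2 and Atp6v1g3, isoforms known from kidney, osteoclasts and testis among other places. Their highest value on any array was 6.06. The core subunits of both sectors had bright probes, with means over the 18 arrays of 13.94 for Atp6v0e (subunit e1), 13.67 for Atp6v1e1 (a stalk subunit), 12.83 for Atp6v0d1 and 12.13 for Atp6v1b2. Lamp1 stood at 13.18, Lamp2 at 12.62 and cathepsin B (Ctsb) at 12.34. The probe of the aspartic protease cathepsin D (Ctsd) read only 6.49, close to background, and levels of different probes cannot be set against each other. The placental cathepsin Ctsr read 6.37 on average, just above background on all 18 arrays.

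A moderated F test over the 6 groups (limma, Benjamini-Hochberg adjustment over all 10958 genes tested) called 8 of the 32 measured members at an adjusted p under 0.05, or 25%, against 18.5% of all genes tested. They were Ctsl (adjusted p = 0.000173), Atp6v0d1 (0.00208), Ctsf (0.0146), Lamp1 (0.0151), Atp6v1c1 (0.0187), Ctse (0.0190), Atp6v0e2 (0.0284) and Ctsk (0.0432). The members' share was thus not far from that of all genes, and most of the set, 24 genes, did not pass.

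**Figure D2:**
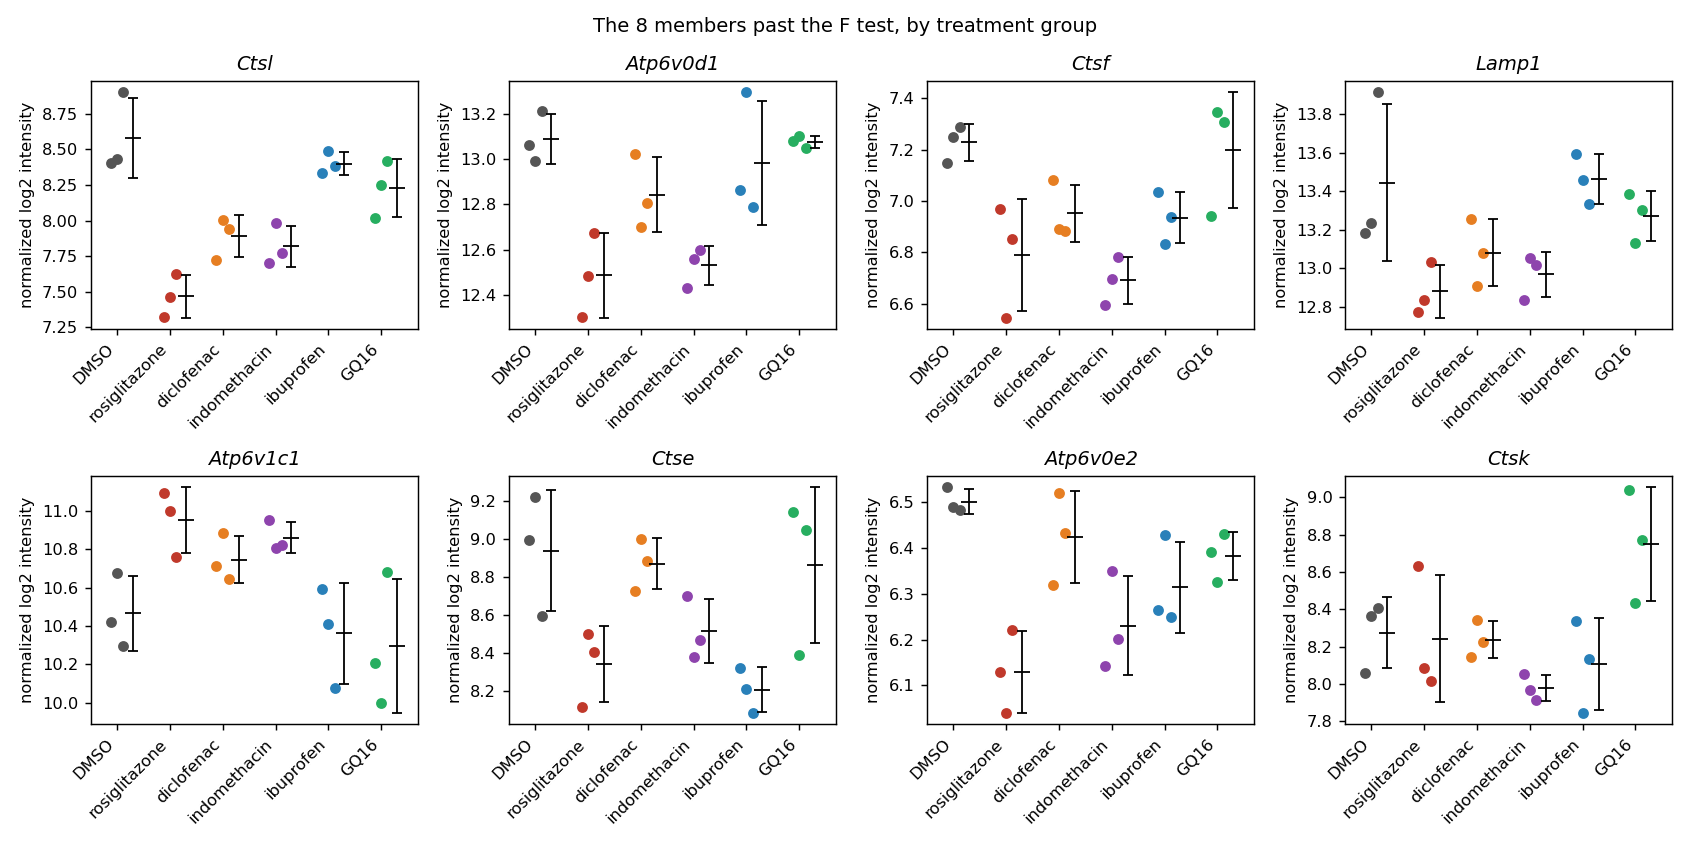
Normalized log2 intensity of the 8 members past the F test in the 6 treatment groups. Coloured points are the 3 arrays of a group in order of replicate number, and the black bar is their mean ± SD; each panel has its own axis. Ctsl is lowest in the 3 rosiglitazone samples, Atp6v0d1 and Lamp1 are low with rosiglitazone and indomethacin, and Ctsk is highest with GQ16.

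Rosiglitazone called 9 of the 32 measured members, 28.1% against 18.1% of all genes tested. Lower were 6 (18.8%, against 10% of all genes): Ctsl, Ctse, Ctsf, Lamp1, Atp6v0d1 and Atp6v0e2. Higher were 3 (9.38%, against 8.06%): Atp6v0b, Atp6v1c1 and Atp6v1c2. The median change of the measured members was -0.05 on the log2 scale, against 0.00 for all genes, so the set did not shift as a whole and its named members went both ways. Indomethacin called 5 (15.6%, against 10.2% of all genes), with 4 lower (12.5%, against 6.65%; Ctsl, Ctsf, Lamp1 and Atp6v0d1) and 1 higher (3.12%, against 3.58%; Atp6v0b). All 5 were also called with rosiglitazone and in the same direction; the comparisons share the DMSO samples.

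Ibuprofen called 2 members (6.25%, against 9.46% of all genes), with Ctse lower (3.12%, against 5.2%) and Ctsa higher (3.12%, against 4.26%). Diclofenac called 1, Ctsl, which was lower (3.12%, against 2.1% of all genes called and 1.48% called lower). GQ16 called 0 by limma, against 1.43% of all genes, although 8 members had an unadjusted p under 0.05. The median change of the members was -0.04 with diclofenac, -0.07 with indomethacin, -0.11 with ibuprofen and -0.06 with GQ16, and that of all genes was within 0.01 of 0 in each of these comparisons.

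**Figure D3:**
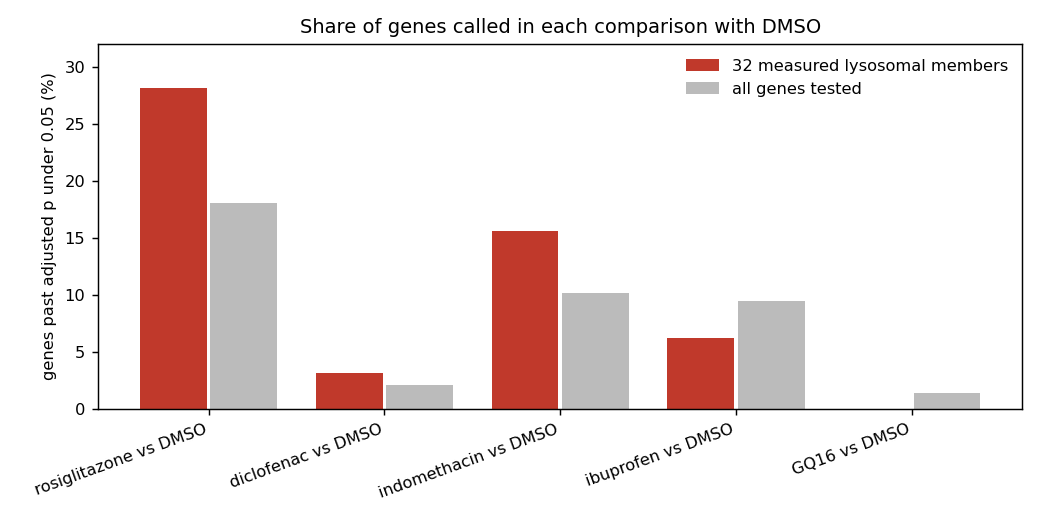
Share of genes past an adjusted p under 0.05 in each comparison with DMSO, in percent. Red bars are the 32 measured members and grey bars all genes tested. The members' share is above the background with rosiglitazone (28.1% against 18.1%) and below it with ibuprofen and GQ16.

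**Figure D4:**
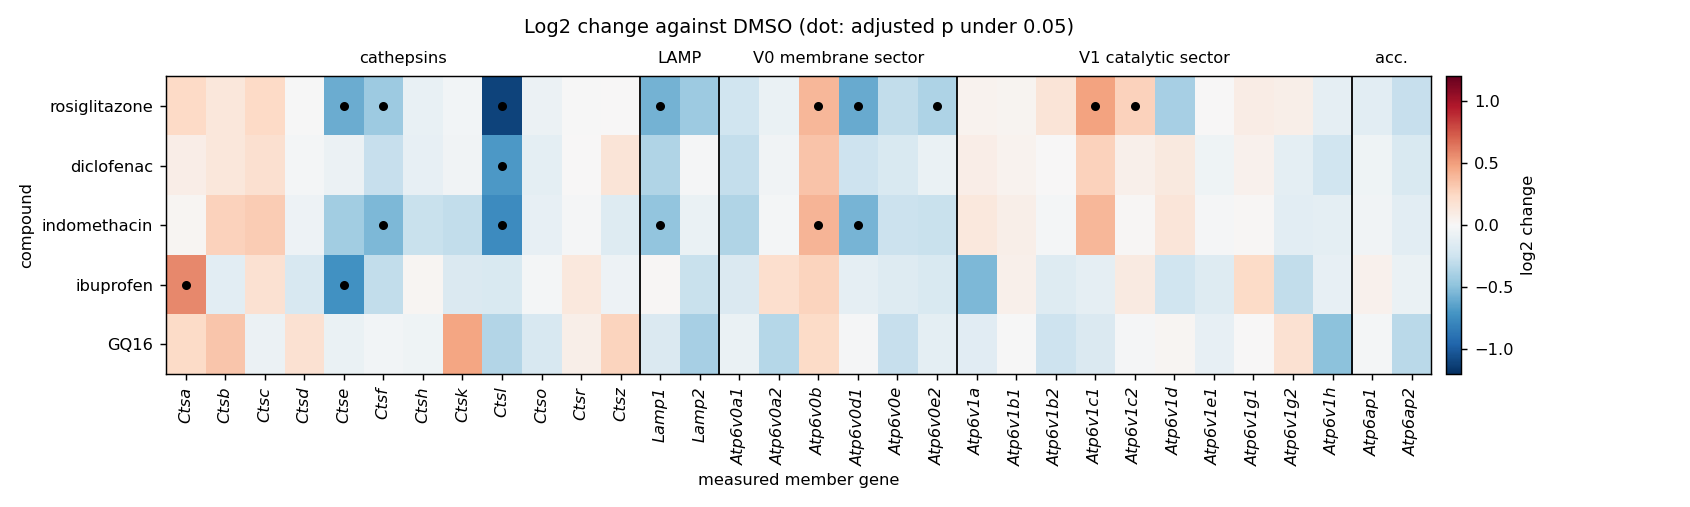
Log2 change of each of the 32 measured members with each compound against DMSO, by colour, with members grouped by role (acc., accessory proteins). Black dots mark an adjusted p under 0.05. Ctsl is the darkest column (-1.11 with rosiglitazone), and the V1 subunits carry dots only with rosiglitazone (Atp6v1c1 and Atp6v1c2).

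Among the 12 measured cathepsins, 3 fell with rosiglitazone, 2 with indomethacin and 1 with diclofenac, where 10%, 6.65% and 1.48% of all genes tested were called lower. With ibuprofen 1 fell and 1 rose (5.2% of all genes called lower and 4.26% higher). Cathepsin L (Ctsl), a lysosomal cysteine endopeptidase, changed most. It read 8.40, 8.43 and 8.90 in DMSO replicates 1, 2 and 3 and 7.32, 7.46 and 7.62 with rosiglitazone. It read 7.72, 8.005 and 7.94 with diclofenac, and 7.70, 7.98 and 7.78 with indomethacin. With ibuprofen the values were 8.33, 8.49 and 8.38, and with GQ16 8.02, 8.25 and 8.42. All rosiglitazone, diclofenac and indomethacin samples lay below all DMSO samples, while the ibuprofen and GQ16 groups overlapped the range of the vehicle. The log2 change was -1.11 ± 0.16 with rosiglitazone (SE, n = 3 per group, limma adjusted p = 2.7e-05, a 2.16-fold fall), -0.76 ± 0.16 with indomethacin (adjusted p = 0.00273) and -0.69 ± 0.16 with diclofenac (adjusted p = 0.0207). It was -0.35 with GQ16 (95% confidence interval -0.68 to -0.02, adjusted p = 0.261) and -0.18 with ibuprofen (-0.51 to 0.15, adjusted p = 0.538), and neither passed.

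Set against rosiglitazone directly, Ctsl was higher with ibuprofen by 0.93 ± 0.16 (SE, limma adjusted p = 0.00262) and with GQ16 by 0.76 ± 0.16 (adjusted p = 0.00262), at the concentrations used. The differences for diclofenac (0.42, 95% confidence interval 0.09 to 0.75, adjusted p = 0.2) and indomethacin (0.35, 0.02 to 0.68, adjusted p = 0.563) did not pass. No slide held both ibuprofen and rosiglitazone, and with slide as a block that difference was 0.95 (adjusted p = 0.0654). DMSO replicate 3 was the highest sample for Ctsl, and the changes were smaller without it and rosiglitazone replicate 1: -0.87 with rosiglitazone, -0.60 with indomethacin and -0.53 with diclofenac, all still past the threshold. On leaving out single arrays the call held 6 of 6 times with rosiglitazone and with indomethacin, and 2 of 6 times with diclofenac (lost without DMSO replicate 3 or diclofenac replicate 1, 2 or 3, adjusted p up to 0.129). Within slide 1 the change with rosiglitazone was the same -0.87. Leaving out DMSO replicate 3 and rosiglitazone replicate 1 leaves only the slide 1 samples of both groups, so this is not a separate check. The slide 1 changes of -0.64 with indomethacin and -0.41 with diclofenac each rest on 1 treated sample. Within slide 2 the diclofenac change was -1.18, from 1 diclofenac sample and DMSO replicate 3, the highest sample for Ctsl.

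Cathepsin F (Ctsf), another cysteine protease, read 7.15, 7.25 and 7.29 in DMSO, 6.97, 6.55 and 6.85 with rosiglitazone and 6.60, 6.70 and 6.78 with indomethacin. Neither compound's samples overlapped those of the vehicle. It fell by 0.44 ± 0.13 with rosiglitazone (adjusted p = 0.0191) and by 0.54 ± 0.13 with indomethacin (adjusted p = 0.00775) on the log2 scale. The first call was lost without DMSO replicate 2 or rosiglitazone replicate 2. It was also lost with no filter on dim probes and with only the arrays of the groups compared (adjusted p up to 0.1 over all settings). The second was lost without indomethacin replicate 1 (adjusted p = 0.0572). With diclofenac the change was -0.28, with ibuprofen -0.29 and with GQ16 -0.03, none past the threshold.

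The Ctse symbol stood for an aspartic protease known mainly from the gut and immune cells. Its only measured probe has no reference transcript in the annotation, and its other 2 probes, which do, were at background, so whether it reads the Ctse transcript is not shown here. That probe read 8.996, 9.22 and 8.59 in DMSO, 8.12, 8.50 and 8.41 with rosiglitazone and 8.32, 8.21 and 8.09 with ibuprofen. It fell by 0.59 ± 0.19 with rosiglitazone (adjusted p = 0.0322) and by 0.73 ± 0.19 with ibuprofen (adjusted p = 0.0172). The lowest vehicle sample, replicate 3, lay only just above the highest rosiglitazone sample. Leaving out DMSO replicate 1 or 2, or rosiglitazone replicate 1 or 3, ended the rosiglitazone call. So did fitting with no filter on dim probes, or with only the arrays of the groups compared. The ibuprofen call ended without DMSO replicate 1 or 2 or ibuprofen replicate 2 or 3. The ibuprofen call was also lost with slide as a block in the fit (-0.58, adjusted p = 0.156); within slide 2 the change was -0.39.

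Cathepsin K (Ctsk), a collagen-cutting cysteine protease best known from osteoclasts, differed among the groups but passed no test against DMSO. It read 9.04, 8.44 and 8.77 with GQ16, all above the vehicle's 8.06, 8.36 and 8.40. The change was 0.47 ± 0.18 with GQ16 (adjusted p = 0.182) and -0.30 ± 0.18 with indomethacin (adjusted p = 0.350), whose samples (8.05, 7.97 and 7.92) had the lowest group mean. Rosiglitazone replicate 1 (8.63) lay well above replicates 2 and 3 (8.08 and 8.01).

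Cathepsin A (Ctsa), a serine carboxypeptidase that also shields other lysosomal enzymes, rose by 0.58 ± 0.17 with ibuprofen (adjusted p = 0.0360), from 8.75, 8.56 and 9.22 in DMSO to 9.56, 9.30 and 9.41. The groups did not overlap, but the gene's 5 measured probes did not move together. A second probe rose by 0.61 (adjusted p = 0.00790 in a fit of every probe), another 2 changed by -0.18 and -0.23 and the last by 0.04, none of these past the threshold. The probe at -0.23, which is dim (mean 6.41), was lower with rosiglitazone (-0.44, adjusted p = 0.00268) and indomethacin (-0.41, adjusted p = 0.00780). With slide as a block the change of the brightest probe was 0.39 (adjusted p = 0.339), within slide 2 it was 0.20, and 5 of 6 omissions of a single array ended the call.

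The other 7 measured cathepsins passed neither test. Ctsb read 12.41, 12.35 and 11.88 in DMSO and 12.52, 12.27 and 12.86 with GQ16, a change of 0.33 ± 0.17 (adjusted p = 0.328), with overlapping groups. Cathepsin D, whose probe was close to background, changed by -0.01 with rosiglitazone, cathepsin Z (Ctsz) by 0.01, and the dipeptidyl peptidase Ctsc by 0.24. A second Ctsz probe, with a mean of 7.48 against 7.58 for the first, differed. In the fit of every probe it changed by -0.36 with rosiglitazone (adjusted p = 0.123) and by -0.36 with indomethacin (adjusted p = 0.170), neither past the threshold. Ctsc, Ctsh and Ctso were above background on 14, 10 and 3 of the 18 arrays, so their changes are compressed toward 0. A second, dimmer probe of Ctso (mean 6.04) was above background only in 3 DMSO and 2 GQ16 samples, and in no rosiglitazone sample. In the fit of every probe it was lower with rosiglitazone (-0.32, adjusted p = 0.0163). It passed the filter only through groups where it is high, so this fall is partly built in.

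Lamp1, a major glycoprotein of the lysosomal membrane, read 13.18, 13.24 and 13.91 in DMSO, 12.77, 12.83 and 13.03 with rosiglitazone and 12.83, 13.05 and 13.01 with indomethacin. It fell by 0.56 ± 0.15 with rosiglitazone (adjusted p = 0.00955) and by 0.48 ± 0.15 with indomethacin (adjusted p = 0.0398) on the log2 scale, and no sample of either group reached the lowest vehicle sample. DMSO replicate 3 stood far above the other 2 vehicle samples. Without it and rosiglitazone replicate 1 the changes were -0.28 (adjusted p = 0.144) and -0.24 (adjusted p = 0.173), and neither call held. The indomethacin call was also lost without any 1 of the indomethacin samples, and with slide as a block (-0.38, adjusted p = 0.0736). Within slide 1, which holds DMSO replicates 1 and 2, the rosiglitazone value was the same -0.28, because the same arrays were compared. The indomethacin value there was -0.20, from 1 indomethacin sample. With ibuprofen Lamp1 read 13.59, 13.46 and 13.33, a change of 0.02 (95% confidence interval -0.29 to 0.32), and it was higher than with rosiglitazone by 0.58 ± 0.15 (adjusted p = 0.0467), or by 0.20 (adjusted p = 0.691) with slide as a block. That call was lost in 5 of 6 omissions of a single array.

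Lamp2, the receptor for chaperone-mediated autophagy in its A form, was read by 7 measured probes, which differed. The brightest stood at 12.96, 12.83 and 12.68 in DMSO and at 11.74, 12.80 and 12.62 with rosiglitazone, where replicate 1 set the mean, and the change of -0.44 ± 0.19 did not pass (adjusted p = 0.105). The 3 probes annotated to the transcript NM_001017959 gave other values. In a fit of every probe they changed by -0.69, -0.40 and -0.80 with rosiglitazone (adjusted p = 0.00216, 0.0654 and 0.0219), given in turn for the probes with means of 11.10, 11.41 and 7.22. With indomethacin they changed by -0.70, -0.40 and -0.40 (adjusted p = 0.00342, 0.101 and 0.339), and with ibuprofen by -0.68, -0.00 and -0.78 (adjusted p = 0.00450, 0.997 and 0.0377). The probe at 11.10 was lower with the other 2 compounds too, at -0.61 with diclofenac (adjusted p = 0.0343) and -0.66 with GQ16 (adjusted p = 0.0335). It thus passed with all 5, but the 5 comparisons share the same 3 DMSO samples and are not separate results. The 2 probes annotated to the transcript NM_010685 passed with none of the 5 compounds. A difference between the 2 transcripts was not tested.

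**Figure D5:**
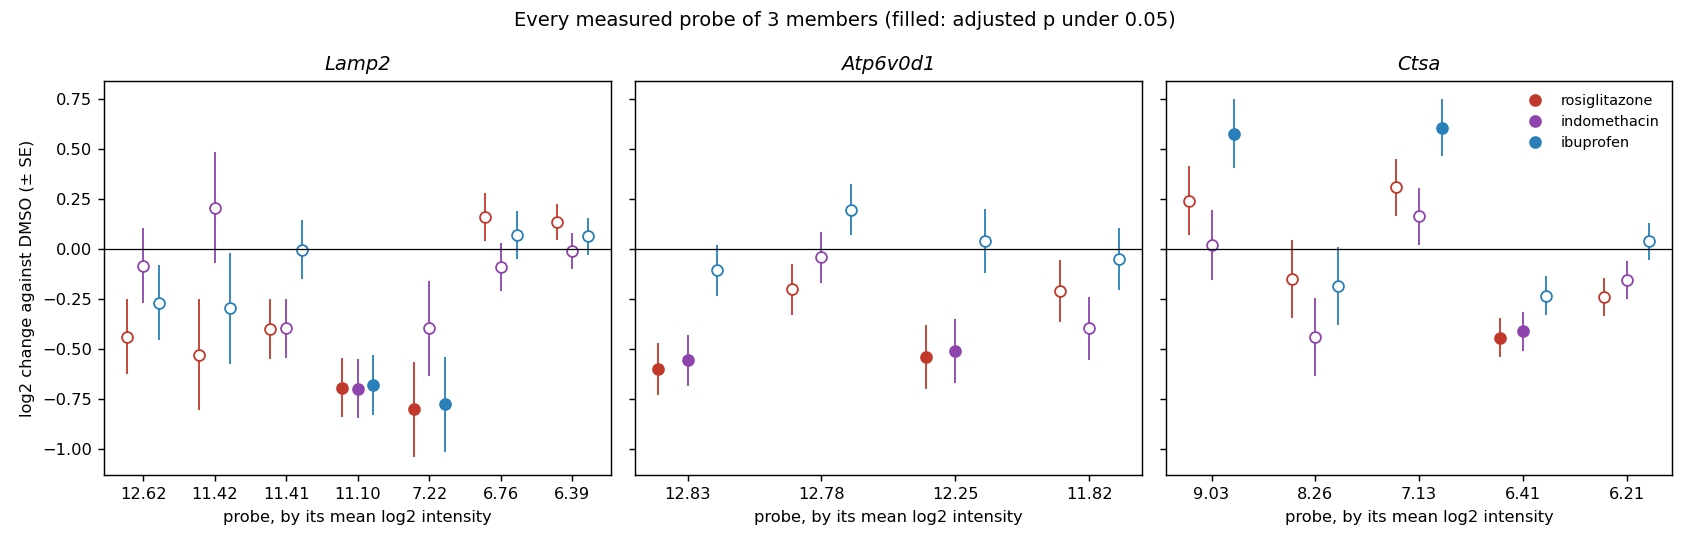
Log2 change against DMSO (± SE) of every measured probe of Lamp2, Atp6v0d1 and Ctsa, with probes ordered by their mean log2 intensity on the x axis. Filled points have an adjusted p under 0.05 in the fit of every probe; red is rosiglitazone, purple indomethacin and blue ibuprofen. The probes of 1 gene differ: 2 of 4 for Atp6v0d1 fall with rosiglitazone and indomethacin, and those of Ctsa lie on both sides of 0.

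In the V0 sector, which holds the proton channel, 2 of 6 measured subunits fell and 1 rose with rosiglitazone (18.1% of all genes tested called), and 1 fell and 1 rose with indomethacin (10.2%). Atp6v0d1, the subunit d1 that couples the central stalk to the rotating ring, read 13.06, 12.99 and 13.21 in DMSO, 12.30, 12.48 and 12.68 with rosiglitazone and 12.43, 12.56 and 12.60 with indomethacin. With GQ16 it read 13.08, 13.10 and 13.05, within the vehicle's range. With diclofenac the values were 13.02, 12.70 and 12.80, and with ibuprofen 12.86, 13.29 and 12.79. Both low groups lay below every vehicle and GQ16 sample. It fell by 0.60 ± 0.13 with rosiglitazone (adjusted p = 0.00208) and by 0.56 ± 0.13 with indomethacin (adjusted p = 0.00596), and these calls held in every alternative run, with single arrays left out included (-0.69 to -0.39 and -0.61 to -0.38). GQ16 changed it by -0.01 (95% confidence interval -0.28 to 0.25), and it was higher with GQ16 than with rosiglitazone by 0.59 ± 0.13 (adjusted p = 0.00365), or by 0.24 (adjusted p = 0.111) as the mean over its probes. Of its 4 measured probes 2 fell with both compounds, and the others changed by -0.20 and -0.21 with rosiglitazone and by -0.04 and -0.40 with indomethacin, not past the threshold.

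Atp6v0b, a proteolipid of the rotating ring, moved the other way. It read 10.76, 10.70 and 10.81 in DMSO, 11.16, 11.38 and 10.92 with rosiglitazone and 11.15, 11.22 and 11.13 with indomethacin. It rose by 0.40 ± 0.13 with rosiglitazone (adjusted p = 0.0301) and by 0.41 ± 0.13 with indomethacin (adjusted p = 0.0398). With diclofenac the 3 samples read 11.11, 11.09 and 11.10, also above every vehicle sample, and the change of 0.34 ± 0.13 did not pass (adjusted p = 0.187). The same held for ibuprofen (0.27, adjusted p = 0.189) and GQ16 (0.23, adjusted p = 0.367), so in all 15 treated samples the value was above the highest vehicle sample. The rosiglitazone call did not hold without DMSO replicate 1 or 2, nor without rosiglitazone replicate 2. The indomethacin call was lost in all omissions of a single array but that of DMSO replicate 3 and with slide as a block (0.40, adjusted p = 0.0851).

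Atp6v0e2, the e2 subunit, was dim: 6.53, 6.49 and 6.48 in DMSO against 6.13, 6.04 and 6.22 with rosiglitazone, where only 1 of 3 samples was above background. It fell by 0.37 ± 0.09 (adjusted p = 0.00460), a value compressed by the floor, and the call held in every alternative. Indomethacin changed it by -0.27 (adjusted p = 0.0506). Atp6v0a1, Atp6v0a2 and the abundant Atp6v0e passed no test against DMSO, with Atp6v0e at -0.29 with rosiglitazone (adjusted p = 0.0615).

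In the V1 sector, which splits ATP, 2 of 10 measured subunits rose with rosiglitazone (8.06% of all genes called higher), 0 fell, and limma called 0 of the 10 with any other compound against DMSO (2 unadjusted p-values were under 0.05, for Atp6v1c1 with indomethacin and Atp6v1h with GQ16). Subunit C, which joins V1 to V0 and is released when the pump comes apart, was behind both rises. Atp6v1c1 read 10.42, 10.68 and 10.30 in DMSO and 11.09, 11.00 and 10.76 with rosiglitazone, a rise of 0.48 ± 0.17 (adjusted p = 0.0481). That call was at the edge: without the 2 arrays the change was 0.33 (adjusted p = 0.244), and with slide as a block it was 0.44 (adjusted p = 0.0890). Leaving out DMSO replicate 1 or 3, or rosiglitazone replicate 1 or 2, also ended it. In the fit of every probe this probe did not pass with rosiglitazone (adjusted p = 0.0513), nor did a second one with a mean of 10.01 (0.45, adjusted p = 0.0598). With ibuprofen the 2 probes changed by -0.10 and 0.43 (adjusted p = 0.755 and 0.0967). Against rosiglitazone Atp6v1c1 was lower with GQ16 by 0.65 ± 0.17 on the log2 scale (adjusted p = 0.0115, lost without GQ16 replicate 2).

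Atp6v1c2, a C isoform known from lung and kidney, was dim, at 6.38, 6.46 and 6.54 in DMSO and 6.77, 6.72 and 6.72 with rosiglitazone. It rose by 0.28 ± 0.09 (adjusted p = 0.0361), a call lost without the 2 arrays (0.30, adjusted p = 0.0553) and with slide as a block (0.28, adjusted p = 0.0503). GQ16 samples read 6.47, 6.48 and 6.39, and the difference from rosiglitazone was -0.29 ± 0.09 (adjusted p = 0.0328, lost on leaving out any 1 of the 6 arrays). The catalytic subunit Atp6v1a changed by -0.54 with ibuprofen (95% confidence interval -1.22 to 0.15, adjusted p = 0.344), the widest interval among the measured members. Without the 2 arrays it was -0.96 (adjusted p = 0.0236), while within slide 2 it was 0.31, the other way. Atp6v1e1 changed by 0.01 with rosiglitazone (-0.19 to 0.21). Atp6v1h, a regulatory subunit, was at -0.49 ± 0.14 with GQ16 (adjusted p = 0.0649). The accessory proteins Atp6ap1 and Atp6ap2, the latter also called the prorenin receptor, passed no test, with changes from -0.32 to 0.05 over the 5 compounds.

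Against rosiglitazone, GQ16 called 6 of the 32 members (18.8%, against 14.8% of all genes tested). Atp6v0d1, Ctsl and Ctsf were higher (9.38%, against 8.74%), and Atp6v1b2, Atp6v1c1 and Atp6v1c2 lower (9.38%, against 6.04%). Atp6v1b2, a nucleotide-binding subunit, read 12.03, 12.01 and 11.73 with GQ16 and 12.60, 12.26 and 12.11 with rosiglitazone, and its call was lost without the 2 arrays (-0.26, adjusted p = 0.150), with slide as a block (-0.40, adjusted p = 0.0677) and in 4 of 6 omissions of a single array. The Ctsf samples of the 2 groups overlapped, and that call was lost with slide as a block (0.36, adjusted p = 0.0773) and in 3 of 6 omissions. Ibuprofen against rosiglitazone called 2, Ctsl and Lamp1, both higher (6.25%, against 1.34% of all genes called and 0.63% called higher). Diclofenac and indomethacin against rosiglitazone gave 0 limma calls among the members, against 1.94% and 0.0365% of all genes; 6 and 2 members had an unadjusted p under 0.05.

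Of 27 measured lysosomal hydrolases and their cofactors outside the symbol rule, 2 rose and 5 fell with rosiglitazone (18.1% of all genes tested were called there), with a median of -0.13 against 0.00 for all genes. With indomethacin 2 fell (10.2% of all genes called), with diclofenac 1 fell (2.1%) and with ibuprofen 1 fell (9.46%). The asparaginyl endopeptidase legumain (Lgmn), which trims cathepsin precursors, fell by 0.83 ± 0.14 with rosiglitazone (adjusted p = 0.000172), by 0.65 with indomethacin (adjusted p = 0.00329) and by 0.59 with diclofenac (adjusted p = 0.0213). The hexosaminidase subunit Hexa fell by 0.46 and 0.64 with rosiglitazone and indomethacin (adjusted p = 0.0305 and 0.00553), and the cholesterol carrier Npc2 by 1.02 with rosiglitazone (adjusted p = 0.00242). The thioesterase Ppt1 rose by 0.63 with rosiglitazone (adjusted p = 0.00865).

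Of 17 measured lysosomal membrane proteins and sorting receptors 2 rose and 1 fell with rosiglitazone (18.1% of all genes tested called). With indomethacin and with ibuprofen 2 rose and 0 fell (10.2% and 9.46% of all genes called), and with GQ16 1 rose (1.43%). The cholesterol exporter Npc1 rose with rosiglitazone (0.42, adjusted p = 0.0349), indomethacin (0.69, adjusted p = 0.00166), ibuprofen (0.85, adjusted p = 0.000274) and GQ16 (0.57, adjusted p = 0.0376). Cln3, a lysosomal membrane protein whose probe was below background on average in DMSO (6.13), rose by 0.52 with rosiglitazone (adjusted p = 0.000218). It also rose with indomethacin (0.49, adjusted p = 0.000746) and ibuprofen (0.33, adjusted p = 0.0193).

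Tcirg1, the a3 subunit of V0 that the symbol rule does not take in, fell by 0.44 with rosiglitazone (adjusted p = 0.0439) and by 0.47 with indomethacin (adjusted p = 0.0462). In the list of 9 measured V-ATPase related genes to which it belongs, 1 rose and 2 fell with rosiglitazone (18.1% of all genes tested called), 1 fell with indomethacin (10.2%), 1 rose with ibuprofen (9.46%) and 1 fell with GQ16 (1.43%). The last was Dmxl1, a relative of a yeast V-ATPase assembly factor, which fell by 0.58 with rosiglitazone (adjusted p = 0.0138) and by 0.80 with GQ16 (adjusted p = 0.0141). Of 17 genes with a probe from the TFEB family and mTORC1 control at the lysosome, 11 were measured, and 1 fell with rosiglitazone (18.1% of all genes called). The median change of the 11 with rosiglitazone was -0.20, against -0.002 for all genes. With diclofenac, indomethacin, ibuprofen and GQ16 limma called 0 (2.1%, 10.2%, 9.46% and 1.43% of all genes). By the F test it called 0 (18.5% of all genes). Of 18 measured autophagy genes 2 fell with rosiglitazone, the ATG8 family member Gabarap (-0.43, adjusted p = 0.0135) and the late endosome GTPase Rab7 (-0.53, adjusted p = 0.0177), and 0 rose (18.1% of all genes tested called). With indomethacin 1 fell, again Gabarap (-0.40, adjusted p = 0.0343; 10.2% of all genes called). With ibuprofen 2 fell (9.46% of all genes called), Rab7 (-0.58, adjusted p = 0.0169) and the ATG8 family member Map1lc3b (-0.66, adjusted p = 0.0297).

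Of 5 measured cathepsin inhibitors 1 rose and 1 fell with rosiglitazone and with ibuprofen (18.1% and 9.46% of all genes tested called), and 1 rose with indomethacin (10.2%). Cst6, cystatin M, was 6.14 ± 0.02 (SD, n = 3) in DMSO, below background, and rose by 1.24 ± 0.16 with rosiglitazone (adjusted p = 4.64e-06), by 0.93 with ibuprofen (adjusted p = 0.000382) and by 0.79 with indomethacin (adjusted p = 0.00148). Cst3, cystatin C, fell by 0.55 with rosiglitazone (adjusted p = 0.0135) and by 0.51 with ibuprofen (adjusted p = 0.0353).

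Preadipocyte and fibroblast markers were lower in some of the same groups. Their summed level, on the log2 scale, ran from 14.38 to 14.59 in DMSO, from 13.74 to 14.10 with rosiglitazone, from 14.00 to 14.15 with indomethacin, from 13.95 to 14.21 with ibuprofen, from 14.07 to 14.27 with diclofenac and from 14.16 to 14.51 with GQ16. With rosiglitazone 8 of the 12 fell and 0 rose, with indomethacin and ibuprofen 6 fell, with diclofenac 3 and with GQ16 1. Of all genes tested 18.1%, 10.2%, 9.46%, 2.1% and 1.43% were called in these comparisons, in the same order. In bulk RNA, fewer cells of a type and less RNA per cell cannot be told apart, and the part of these cells in the falls of Ctsl, Ctsf and Lamp1 was not tested. The summed level of the 9 adipocyte markers stayed between 16.40 and 16.55 in all 18 samples, but single markers changed. With rosiglitazone 1 rose and 2 fell (18.1% of all genes called), with indomethacin 2 fell (10.2%), with ibuprofen 1 rose and 1 fell (9.46%), with diclofenac 1 fell (2.1%) and with GQ16 1 fell (1.43%). The rises were Pnpla2 with rosiglitazone (0.29, adjusted p = 0.0248) and Plin1 with ibuprofen (0.51, adjusted p = 0.0337). The median change of the 9 was 0.17 with rosiglitazone, 0.17 with diclofenac, 0.22 with indomethacin, 0.17 with ibuprofen and 0.04 with GQ16. Pparg, the gene of the receptor PPARγ, fell by 0.76 with rosiglitazone (adjusted p = 8.32e-05), by 0.67 with indomethacin (adjusted p = 0.000620) and by 0.40 with ibuprofen (adjusted p = 0.0372). Slc2a4, the insulin-responsive glucose transporter, fell with all compounds but ibuprofen, by 0.69 with rosiglitazone (adjusted p = 0.00248). The part of these changes in those of the members was not tested. The 3 macrophage markers above background on at least 3 arrays, Csf1r, Cd14 and Acp5 (the last on 6 of 18), passed no test.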

How the data were processed

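Total RNA of 18 samples was hybridised to Illumina mouse arrays. Values are the authors' processed log2 intensities as deposited, made with GenomeStudio and lumi per the submitters' processing notes, with versions and settings not given in the sources used here. The 18 deposited columns hold the same sorted values within 0.00157, which is quantile normalization; base 2 is inferred from the highest value, 14.8, and values are not centred (median of every array 5.98). Depth does not apply to arrays, and 3 arrays per group limit the precision. A table with 36 columns of non-normalized values was not used, because its headers name only 3 columns, and by numbers that match no sample, so the neqc background correction was not run.

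Symbols came from the platform annotation; 34885 probes had 1 symbol, 18 several and 10378 none, and all 76 member probes matched a RefSeq gene (GRCm38.p6). The brightest probe above background on at least 3 arrays stood for a gene, which left 10958 genes. They were fitted with limma 3.58.1 (R 4.3.3) with 1 mean per group, 12 residual degrees of freedom and an intensity trend, after testing on simulated data. Two-sided moderated tests compared the 5 compounds with DMSO and 4 with rosiglitazone, with Benjamini-Hochberg adjustment over all genes within a comparison; "rose", "fell" and "called" mean an adjusted p under 0.05. A fold is on the log2 scale of the deposited values and is understated for dim probes. Members past the F test or a test against DMSO are named, as are the brightest members, and from every other list at most 4 genes past the F test. Some other list genes, called against DMSO or used as cell type markers, are named too. Members, lists and tests were chosen with earlier results of these data known. Figures and motif counts used Python 3.11.15.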

Additional observations from a re-analysis of the deposited data

How the results depend on the processing

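Of 25 member changes called against DMSO or rosiglitazone, 5 kept their call in all alternatives run: Ctsl and Atp6v0d1 with rosiglitazone and indomethacin and Atp6v0e2 with rosiglitazone. Over 400 refits, 289 kept the call, 111 kept only the direction and 0 changed direction. The counts of members called moved by more than 1.5 times in these cases; where fewer arrays, or more genes with no filter on dim probes, were fitted, that is part of the setting, and otherwise the cause was not tested. With no filter on dim probes the F test called 4 in place of 8, rosiglitazone against DMSO 5 in place of 9, and ibuprofen against DMSO and against rosiglitazone 1 each in place of 2. The F test then called 7.34% of all genes, against 18.5% with the filter. With only the arrays of the groups compared, rosiglitazone against DMSO called 3, GQ16 against rosiglitazone 1 in place of 6, and ibuprofen against rosiglitazone 0. With slide as a block ibuprofen called 0 against DMSO and 0 against rosiglitazone. Of all genes 3.47% and 0.201% were then called, against 9.46% and 1.34% without the block. With the mean over a gene's probes ibuprofen called 1 against DMSO, and with no intensity trend, or with every probe fitted as its own row, 1 against rosiglitazone. Without DMSO replicate 3 and rosiglitazone replicate 1, GQ16 called 1 in place of 0 against DMSO (6.21% of all genes, against 1.43%). Where it is given, the share of all genes moved the same way as the count. A part particular to the members was not tested. On leaving out 1 array in turn, the count ran from 6 to 10 for the F test, from 5 to 8 for rosiglitazone, 0 to 1 for diclofenac, 2 to 4 for indomethacin, 0 to 3 for ibuprofen and 0 to 1 for GQ16 against DMSO, and against rosiglitazone from 3 to 7 for GQ16, from 1 to 3 for ibuprofen and was 0 for diclofenac and indomethacin.

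Replicate numbers are shared between groups but do not pair the samples: of 45 same-numbered pairs of arrays 10 had deviations that correlated above 0.1 (range -0.33 to 0.53), and 7 of 18 arrays correlated best with their own number. With the replicate block the F test called 8 members and the comparisons with DMSO 8, 1, 4, 2 and 0 for rosiglitazone, diclofenac, indomethacin, ibuprofen and GQ16, each within 1.5 times of the count without it.

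The planned neqc correction of the non-normalized signals was not run, because those columns could not be matched to samples.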
